A study of Homo sapiens with 36 samples.

Results

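The 6 EHEB libraries of ibrutinib and of its vehicle, out of 36 libraries in the series, were compared across all expressed genes. EHEB is a p53 wild-type B lymphoblastoid line used as a model of chronic lymphocytic leukaemia (CLL). Cells were exposed for 96 h to 5 µM ibrutinib or to DMSO, with 3 libraries in each group, and rRNA-depleted total RNA was sequenced. The libraries were chosen by their sample titles and are called DMSO or ibrutinib library 1, 2 and 3 here, in the order of the numbers in those titles, which is also the order of all triplets of values. The series also holds EHEB treated for 96 h with 10 µM idelalisib or 50 µM fludarabine, and the lines JVM2 (72 h) and MEC1 (48 h) under the same treatments. Of the 37549 genes listed, 17748 had enough counts to be tested in EHEB.

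Ibrutinib binds a cysteine of Bruton's tyrosine kinase (BTK) covalently and blocks signalling from the B-cell receptor, the surface immunoglobulin complex of B cells. The receptor passes its signal through the kinases LYN, SYK and BTK to phospholipase C gamma 2 and PI3 kinase delta, and from there to the ERK, NF-kB and AKT pathways. In CLL these pathways sustain survival, metabolism, chemokine secretion and the retention of cells in lymphoid tissue.

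The library numbers place the DMSO libraries in another run of numbers than the ibrutinib libraries, and the ibrutinib numbers have no DMSO library of their own, so a difference between these series and the effect of the drug cannot be told apart. EHEB is 1 line, and whether the 3 libraries of a group came from separate cultures is not stated, so p values measure the spread between these libraries. Total counts lay between 31419639 and 47140796 per library. B-cell markers were present at overlapping summed levels in both groups, at 1831 to 1885 CPM, counts scaled to library size, with DMSO and 1816 to 2009 CPM with ibrutinib over 8 markers. Of markers of other cells, CD3D, CD3G and LYZ had no count in any of the 6 libraries, while TRAC was at 42.0, 41.1 and 40.2 CPM with DMSO and 23.0, 21.8 and 25.0 with ibrutinib. The monocyte and macrophage list summed to 12.6 to 14.4 CPM with DMSO and 14.3 to 18.3 with ibrutinib, mostly from MS4A7 at 9.47, 9.81 and 8.22 and 11.8, 12.5 and 14.4 CPM, and none of its 5 tested members was called. Mitochondrially encoded genes took 1.27% to 1.66% of counts with DMSO and 1.67% to 2.31% with ibrutinib, and MALAT1 with NEAT1 took 0.124% to 0.188% and 0.265% to 0.697%. The part of these shares in the results was not tested.

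At a Benjamini-Hochberg adjusted p under 0.05 over all genes tested, the quasi-likelihood test of edgeR called 1509 genes higher with ibrutinib (8.5%) and 1990 lower (11.2%). All fold changes below are on the log2 scale as ibrutinib over DMSO, with the standard error after ±, and single values per library are TMM-normalised CPM. Most calls were small: 306 genes rose and 291 fell by more than 1 on the log2 scale. In 17.8% of genes every ibrutinib library lay above every DMSO library, and in 19.7% every one lay below. The balance of the calls depended on the scaling, since library size alone in place of TMM gave 2522 higher and 1336 lower genes and raised the median of all genes by 0.10 on the log2 scale. With TMM that median was 0.0095, which is the level the lists below are read against.

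**Figure D1:**
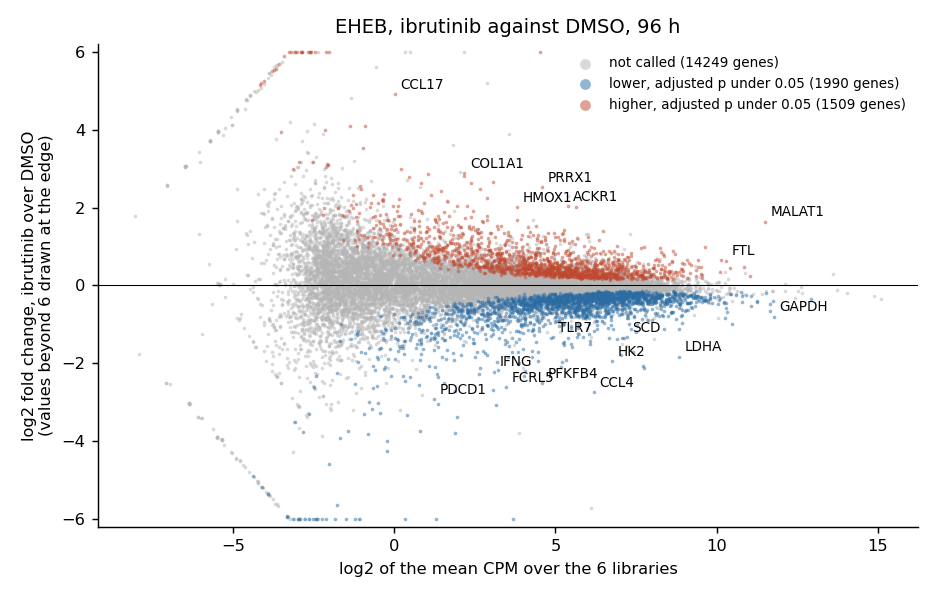
Each point is 1 gene tested in EHEB, with the log2 of its mean CPM over the 6 libraries on the x axis and its log2 fold change (ibrutinib over DMSO) on the y axis. Red points are the 1509 genes called higher, blue points the 1990 called lower and grey points the rest, and glycolysis genes (HK2, PFKFB4, LDHA, GAPDH) sit below the line while HMOX1, FTL and MALAT1 sit above it. Values beyond 6 are drawn at the edge.

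The hypoxia response and glycolysis moved together and downward. Many of these genes are under the control of the transcription factor HIF1, whose alpha subunit accumulates when oxygen is low or PI3K and mTOR signalling is high, and they include the enzymes that turn glucose into lactate. Of 25 tested hypoxia response genes 22 fell and none rose, with a median log2 fold change of −0.9997. Of 24 glycolysis and lactate export genes 19 fell and none rose, with a median of −0.74. In 23 and 19 of them all 3 ibrutinib libraries lay below all 3 DMSO libraries. Without TMM, 21 and 17 members were lower, and 1 hypoxia gene was higher.

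The short letters ACGTG form the core that HIF1 binds, so the promoters of falling members are shown with that motif. Each line gives 100 bases around a match in the promoter, 5′ to 3′ on the strand of the gene, from the RefSeq table of GRCh38.p14, with ACGTG or its reverse complement in capitals. The windows lie at chr9:35673828-35673927 on the plus strand, chr10:131982005-131982104 on the minus strand, chr2:74834027-74834126 on the plus strand, chrX:78104018-78104117 on the plus strand and chr11:18394430-18394529 on the plus strand, in that order.
CA9: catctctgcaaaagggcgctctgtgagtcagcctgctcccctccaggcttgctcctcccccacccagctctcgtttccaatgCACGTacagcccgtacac
BNIP3: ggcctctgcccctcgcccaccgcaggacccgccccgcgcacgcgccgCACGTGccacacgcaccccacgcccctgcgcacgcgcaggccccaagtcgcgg
HK2: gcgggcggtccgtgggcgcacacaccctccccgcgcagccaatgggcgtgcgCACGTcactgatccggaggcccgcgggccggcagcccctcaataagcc
PGK1: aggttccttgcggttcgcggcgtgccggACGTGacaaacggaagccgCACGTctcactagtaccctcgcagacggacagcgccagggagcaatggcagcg
LDHA: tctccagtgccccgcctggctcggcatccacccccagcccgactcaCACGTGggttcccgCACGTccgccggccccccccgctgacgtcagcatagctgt
The motif, searched on both strands over 250 bases before and 50 after each start, was in 46.3% of the 41 promoters found for both lists, in 25.7% of 12445 promoters of tested genes and in 21.6% of all 27305 promoters of the table. The letters overlap the E-box CACGTG, which other factors bind and which was in 19.5% and 9.65% of the promoters of both lists and of tested genes. By list, the motif was in 55% of 20 hypoxia promoters and 38.1% of 21 glycolysis promoters. Among members called lower it was in 58.8% of 17 and 38.9% of 18. Many listed genes are known to be under HIF1 control, so its motif can be frequent whether or not they fell. A match describes the letters and is not evidence of binding.

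CA9, a carbonic anhydrase of the cell surface (chr9:35673928-35681159, plus strand), held 189, 197 and 244 counts in the DMSO libraries and none in any ibrutinib library. That is at least 201-fold lower when a floor of 3 counts is taken over the group. BNIP3L, a receptor for mitophagy, stood at 236, 272 and 271 CPM with DMSO and 76.9, 76.2 and 83.0 with ibrutinib (log2 fold change −1.72 ± 0.0718, adjusted p = 3.76e-07). Its relative BNIP3 went from 82.8, 107 and 107 to 38, 34.5 and 32.0 CPM (log2 fold change −1.51 ± 0.113, adjusted p = 1.02e-05). In each case the groups were far apart compared with the spread inside them. VEGFA (−1.49), EGLN3 (−1.51), P4HA1 (−1.35) and PDK1 (−1.18) also fell. In that order they encode the vascular growth factor, an oxygen-sensing prolyl hydroxylase, a collagen prolyl hydroxylase and a kinase that inhibits pyruvate dehydrogenase. HIF1A itself was at 232.6, 205 and 205 CPM with DMSO and 245, 221 and 226 with ibrutinib, with overlapping groups (0.11, adjusted p = 0.321).

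Along glycolysis PFKFB4, SLC16A3, HK2 and LDHA had the largest falls of the 24 tested genes. LDHA, the enzyme that makes lactate (chr11:18394560-18408425, plus strand), was at 708, 714 and 718 CPM with DMSO and 184.4, 203 and 213 with ibrutinib (log2 fold change −1.83 ± 0.0764, adjusted p = 3.76e-07). SLC16A3, the lactate exporter MCT4, was at 44.8, 56.7 and 72.4 and 13.3, 13.3 and 14.3 CPM (log2 fold change −2.09 ± 0.143, adjusted p = 5.73e-06). HK2, which traps glucose in the cell, was at 149.5, 179.7 and 189.96 and 43.9, 42.9 and 47.2 CPM (log2 fold change −1.95 ± 0.0840, adjusted p = 3.76e-07). No library of one group reached the range of the other for these genes. PFKFB4, which makes the activator of phosphofructokinase, changed by −2.51 ± 0.163 (adjusted p = 4.97e-06). Smaller falls were seen for the enzymes between them, PGK1 (−1.13), ENO1 (−0.99), PGAM1 (−0.96), GAPDH (−0.81), ALDOA (−0.77) and GPI (−0.70). The glucose carriers split, with SLC2A3 lower (−1.33) and SLC2A1 not called (−0.14, adjusted p = 0.619). DDIT4, an inhibitor of mTORC1 that hypoxia and stress raise, went from 182, 194 and 208 to 74.1, 69.4 and 83.5 CPM (log2 fold change −1.36 ± 0.0888, adjusted p = 4.97e-06). AK4, an adenylate kinase of mitochondria and 1 of the 12 leading falls, was at 6.48, 10.6 and 26.8 and 1.03, 0.883 and 4.87 CPM (log2 fold change −2.68 ± 0.843, adjusted p = 0.0467), and its call was lost without DMSO library 2 or 3 or ibrutinib library 1 or 2 (adjusted p = 0.0715 to 0.167), when limma-voom was used (adjusted p = 0.0689), when no low-count filter was applied (adjusted p = 0.0588) and in a fit of only the 6 libraries (adjusted p = 0.0637).

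**Figure D2:**
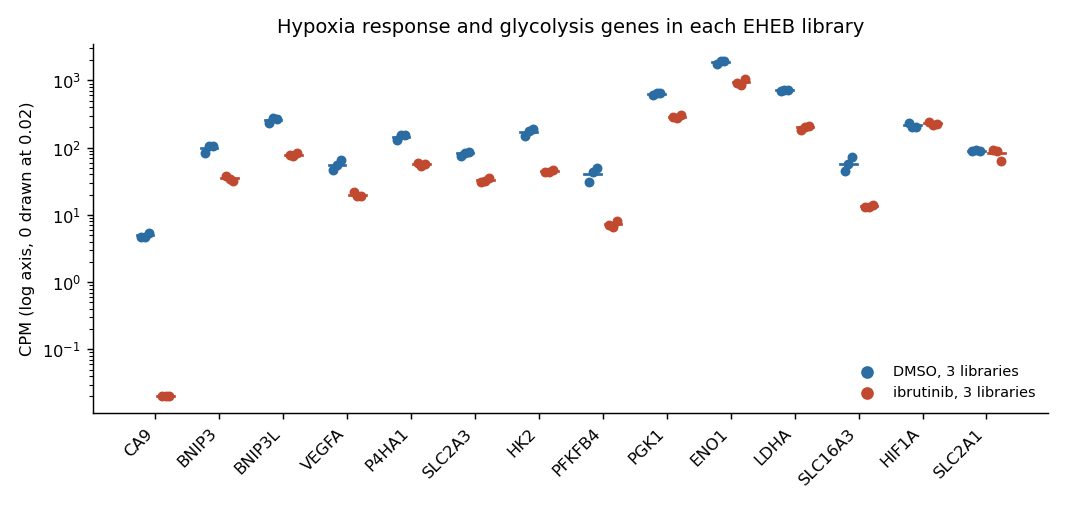
The y axis gives CPM on a log axis for 14 hypoxia response and glycolysis genes, with the 3 DMSO libraries in blue and the 3 ibrutinib libraries in red, a bar at each group's mean and counts of 0 drawn at 0.02. The red points lie below the blue ones for 12 genes, while those of HIF1A and SLC2A1 overlap.

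Genes of lipid synthesis fell as well, though by less. SCD, the desaturase that makes monounsaturated fatty acids, was at 217, 212 and 204 CPM with DMSO and 82.6, 80.2 and 88.8 with ibrutinib (log2 fold change −1.33 ± 0.0590, adjusted p = 3.76e-07). SREBF1, the transcription factor that drives this pathway, was at 10.2, 8.43 and 8.0 and 2.72, 2.07 and 2.67 CPM (log2 fold change −1.83 ± 0.202, adjusted p = 0.000118). Both groups were clearly separate. Of fatty acid synthesis and desaturation genes, 0 higher and 9 lower of 21 were called (median −0.30), and of cholesterol synthesis enzymes 1 higher and 10 lower of 20 (median −0.30), among them DHCR7 (−0.56), ACAT2 (−0.54) and HMGCS1 (−0.43). For sterol uptake and SREBP control the counts were 0 higher and 8 lower of 14, and without TMM 3 were lower. Fatty acid oxidation divided into 5 higher and 5 lower of 24, and without TMM none was lower. With single libraries left out, the count of falls in fatty acid oxidation, 5 with all libraries, was 2 without DMSO library 3 or ibrutinib library 1 or ibrutinib library 2 and 3 without DMSO library 1 or DMSO library 2, and the count of falls in sterol control, 8 with all libraries, was 3 without DMSO library 1 or DMSO library 3, 4 without DMSO library 2 or ibrutinib library 3 and 5 without ibrutinib library 1 or ibrutinib library 2. CPT1A, the gate for fatty acid entry into mitochondria, rose from 44.3, 52.4 and 52.4 to 98.0, 96.1 and 95.8 CPM (log2 fold change 0.96 ± 0.0651, adjusted p = 5.55e-06), and the carnitine palmitoyltransferase CPT1B rose too (1.10).

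The mitochondrially encoded genes were higher, and few nuclear genes of the same complexes were called. Of 13 mitochondrially encoded protein genes 12 rose (median 0.88), led by MT-ATP8 (1.35) and MT-ATP6 (1.25). MT-CO1, the most expressed of them, was not called (0.29, adjusted p = 0.169). It was at 12748, 11190 and 9512 CPM with DMSO and 15107, 14385 and 11293 with ibrutinib. The summed CPM of the list overlapped between groups, at 13139 to 17405 with DMSO and 16967 to 22201 with ibrutinib. MT-ATP6, a subunit of ATP synthase, was at 44.96, 37.2 and 33.0 CPM with DMSO and 97.1, 109 and 67.5 with ibrutinib. Ibrutinib library 3 lay nearest to the DMSO libraries, and the count of rises, 12 with all libraries, was 5 without ibrutinib library 2 and 6 without DMSO library 2 or DMSO library 3 or ibrutinib library 1. Only 1 higher and 6 lower of 81 (4 and 4 without TMM) of the nuclear-encoded respiratory chain subunits were called, and in the citric acid cycle 3 higher and 4 lower of 23 (4 and 2 without TMM), with IDH2 (−0.82) and SUCLG2 (−0.61) lower and MPC1, a pyruvate carrier subunit, higher (0.61). De novo nucleotide synthesis gave 3 higher and 7 lower of 28 (3 and 3 without TMM), with MTHFD1L of mitochondrial folate metabolism at 50.4, 50.1 and 53 and 26.6, 22.5 and 27.8 CPM (log2 fold change −0.997 ± 0.0909, adjusted p = 3.68e-05). With single libraries left out, the count of falls in nucleotide synthesis, 7 with all libraries, was 1 without DMSO library 2, 2 without ibrutinib library 2, 3 without DMSO library 1 or ibrutinib library 1 and 4 without DMSO library 3, the count of rises there, 3 with all libraries, was 1 without DMSO library 2 or DMSO library 3, and the count of falls in the citric acid cycle, 4 with all libraries, was 2 without DMSO library 1 or ibrutinib library 2.

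The transcript of the drug target was not called. BTK was at 62.4, 74.2 and 73.8 CPM with DMSO and 83.3, 71.1 and 70.9 with ibrutinib, with overlapping groups (0.099, adjusted p = 0.481). Among the 10 tested kinases that carry the same drug-binding cysteine, TXK (1.69) and BLK (0.22) rose, but the call of TXK was lost without any library other than ibrutinib library 3 (adjusted p = 0.0679 to 0.106) and that of BLK without DMSO library 1 or 2 or ibrutinib library 2 or 3 (adjusted p = 0.0638 to 0.125) or without the low-count filter (adjusted p = 0.0637). TEC (−0.23, adjusted p = 0.276), JAK3 (0.13, adjusted p = 0.173), EGFR (−0.61, adjusted p = 0.276), ERBB2 (0.069, adjusted p = 0.766), ERBB4 (−0.52, adjusted p = 0.819) and MAP2K7 (0.013, adjusted p = 0.92) were among those not called, and BMX was too low to be tested.

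Downstream of the receptor, more components fell than rose, with 5 higher and 13 lower of 36 of the kinases and adaptors (median −0.11). PIK3CD, the catalytic subunit of PI3 kinase delta, rose from 296, 302 and 306 to 418, 424 and 478 CPM (log2 fold change 0.55 ± 0.0615, adjusted p = 0.000131). PLCG2, the phospholipase that BTK activates, fell from 535, 548 and 529.6 to 399, 363 and 405 CPM (log2 fold change −0.47 ± 0.0472, adjusted p = 6.6e-05). The groups did not overlap for either gene. PTPN6, the phosphatase SHP-1, and PIK3AP1, an adaptor for PI3 kinase, fell by 0.78 and 0.76 on the log2 scale, as did LYN (−0.36). Among the kinases and adaptors, the count of rises, 5 with all libraries, was 3 without DMSO library 1 or DMSO library 2 or ibrutinib library 2 or ibrutinib library 3. SYK was at 82.2, 83.2 and 83.4 and 71.7, 64.9 and 70.9 CPM (log2 fold change −0.26 ± 0.0656, adjusted p = 0.0172), and its call was lost without TMM (adjusted p = 0.125) and without any of the 3 DMSO libraries or ibrutinib library 2 (adjusted p = 0.0522 to 0.0831). Of the receptor and coreceptor genes 2 higher and 2 lower of 17 were called. FCRL5, an inhibitory receptor of B cells (chr1:157513377-157552515, minus strand), went from 18.9, 17.3 and 20.8 to 3.41, 3.84 and 2.06 CPM (log2 fold change −2.62 ± 0.287, adjusted p = 0.000114), while FCGR2B (0.71) rose and CD79A (−0.13, adjusted p = 0.46) was not called.

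Target genes of the downstream arms were examined next. ERK feedback genes, which are switched on by ERK signalling and restrain it, were lower in 11 of 17 cases and higher in none (median −0.52). DUSP2, a nuclear phosphatase, was at 149, 148 and 154 CPM with DMSO and 68.3, 67.1 and 74.0 with ibrutinib (log2 fold change −1.11 ± 0.0576, adjusted p = 1.17e-06), and SPRY1 (−2.11), SPRED2 (−1.04), ETV5 (−0.996), DUSP6 (−0.91) and SPRY2 (−0.62) fell too. Of the immediate early transcription factors 2 higher and 9 lower of 24 were called, with FOSL2 (−1.90) and NR4A3 (−1.31) among the falls. NF-kB genes were more often higher, with 12 higher and 1 lower of 26 called (median 0.19). TNFAIP2 rose from 52.1, 45.8 and 54.0 to 112, 118 and 112 CPM (log2 fold change 1.17 ± 0.0878, adjusted p = 1.02e-05), and IKBKE (0.89), CFLAR (0.64), BIRC3 (0.59) and NFKBIA (0.52) rose, which include a feedback inhibitor of the pathway and inhibitors of apoptosis. FOXO and PI3K feedback genes were divided, 4 higher and 8 lower of 29. DEPP1, a FOXO target, rose from 27.7, 27.0 and 27.0 to 52.8, 60.2 and 60.2 CPM (log2 fold change 1.08 ± 0.0597, adjusted p = 1.6e-06) and TXNIP, a glucose-responsive inhibitor of glucose uptake, fell from 35.9, 33.2 and 32.0 to 17.2, 15.7 and 17.98 CPM (log2 fold change −0.99 ± 0.0925, adjusted p = 4.14e-05).

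Chemokines moved in both directions, 4 higher and 10 lower of 16, with a median of −1.35. CCL3 and CCL4, which activated B cells secrete to draw in T cells, were both lower. CCL4 (chr17:36103827-36105621, plus strand) was at 136, 126 and 122 CPM with DMSO and 18.7, 15.6 and 22.8 with ibrutinib (log2 fold change −2.75 ± 0.136, adjusted p = 9.04e-07), and CCL3 at 347, 341 and 339 and 85.1, 73.9 and 87.2 CPM (log2 fold change −2.06 ± 0.0648, adjusted p = 7.67e-08). CCL5 was at 38.98, 32.3 and 30.6 and 10.9, 8.34 and 11.8 CPM (log2 fold change −1.71 ± 0.130, adjusted p = 1.1e-05). Their near-identical copies CCL4L2 (−3.08) and CCL3L3 (−1.96) share reads with them and are uncertain. XCL1, a ligand for cross-presenting dendritic cells, was at 1.24, 1.14 and 0.822 and 0.135, 0 and 0.0685 CPM (log2 fold change −3.81 ± 0.718, adjusted p = 0.00363). CXCL8 was called lower at 0.346, 0 and 0.333 and 0, 0 and 0 CPM, although DMSO library 2 held none, and its call was lost without any library other than that one (adjusted p = 0.055 to 0.0705) and by limma-voom (adjusted p = 0.216).

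Within this list, the rises were in ligands of CCR4 and CXCR3. CCL17 (chr16:57404767-57416063, plus strand) had no count in DMSO libraries 1 and 2 and 0.178 CPM in library 3, against 2.09, 1.58 and 2.22 CPM with ibrutinib (log2 fold change 4.92 ± 0.766, adjusted p = 0.00116), and without library 3 the fitted value was 9.19. CCL22 went from 219.6, 221 and 209.9 to 301, 298 and 343 CPM (log2 fold change 0.53 ± 0.0655, adjusted p = 0.000243). CXCL10 went from 16.9, 19.4 and 16.7 to 47.1, 42.0 and 45.04 CPM (log2 fold change 1.34 ± 0.0731, adjusted p = 1.56e-06), and CXCL9 rose by 1.25. Ibrutinib libraries were above the DMSO libraries in all 4 genes. Outside the list, CXCL3 had no count with DMSO and counts of 9, 14 and 9 with ibrutinib. CCL1 (counts of 37, 40 and 31) and CCL15 (10, 17 and 22) were present with DMSO and had no count with ibrutinib.

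Cytokines and their receptors gave 5 higher and 11 lower of 38 (8 and 10 without TMM). IFNG, the type II interferon, was at 15.6, 13.8 and 13.2 CPM with DMSO and 2.85, 3.53 and 2.76 with ibrutinib (log2 fold change −2.22 ± 0.152, adjusted p = 5.73e-06). LTB, which builds lymphoid tissue together with LTA, was at 2.08, 1.81 and 2.51 and 4.56, 6.73 and 6.81 CPM (log2 fold change 1.495 ± 0.180, adjusted p = 0.000215). IL13RA1 was at 10.3, 11.1 and 9.73 and 26.7, 24.8 and 28.4 CPM (log2 fold change 1.36 ± 0.0761, adjusted p = 1.8e-06), and IL24 (−0.85), TNF (−0.71) and IL2RA (−0.64) were lower. JAK-STAT feedback genes and PIM kinases divided into 6 higher and 5 lower of 22, with SOCS3 down (log2 fold change −1.36 ± 0.190, adjusted p = 0.000567) and PIM1 up (log2 fold change 1.19 ± 0.138, adjusted p = 0.000165).

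Some surface genes shared with activated lymphocytes fell, and of the first 3 given here only PDCD1 was among the 12 leading falls. PDCD1, which encodes the checkpoint receptor PD-1, went from 3.66, 4.42 and 4.51 to 0.651, 0.457 and 0.526 CPM (log2 fold change −2.93 ± 0.214, adjusted p = 8.72e-06). LAG3 went from 104, 94.1 and 96.6 to 35.9, 34.4 and 40.03 CPM (log2 fold change −1.42 ± 0.0772, adjusted p = 1.56e-06), and TNFRSF18 from 1.48, 1.62 and 1.76 to 0.225, 0 and 0 CPM (log2 fold change −4.27 ± 0.773, adjusted p = 0.0029), with a fitted value of −8.91 without ibrutinib library 1. No ibrutinib library reached the DMSO range. Over the costimulatory and checkpoint list the calls were balanced at 7 higher and 7 lower of 26, and the rises included ICOSLG (0.79) and CD80 (0.64), which present costimulation to T cells. The leading falls also held CD7 (−2.51) and ADGRG1 (−3.05), which T and NK cells carry. With them moved the T-cell markers, with 3 of 5 tested lower and a summed 53.3 to 57.8 CPM with DMSO against 27.9 to 33.1 with ibrutinib, and the NK-cell markers, with 3 of 5 tested lower and 26.8 to 30.2 against 15.4 to 15.7 CPM. CD3D, CD3G and TRBC1 were at 0 throughout, and TRBC1 was among the tested T-cell markers. The part of T and NK cells in these results and in the chemokine results was not tested. In bulk RNA fewer cells of a type and less RNA per cell cannot be told apart.

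**Figure D3:**
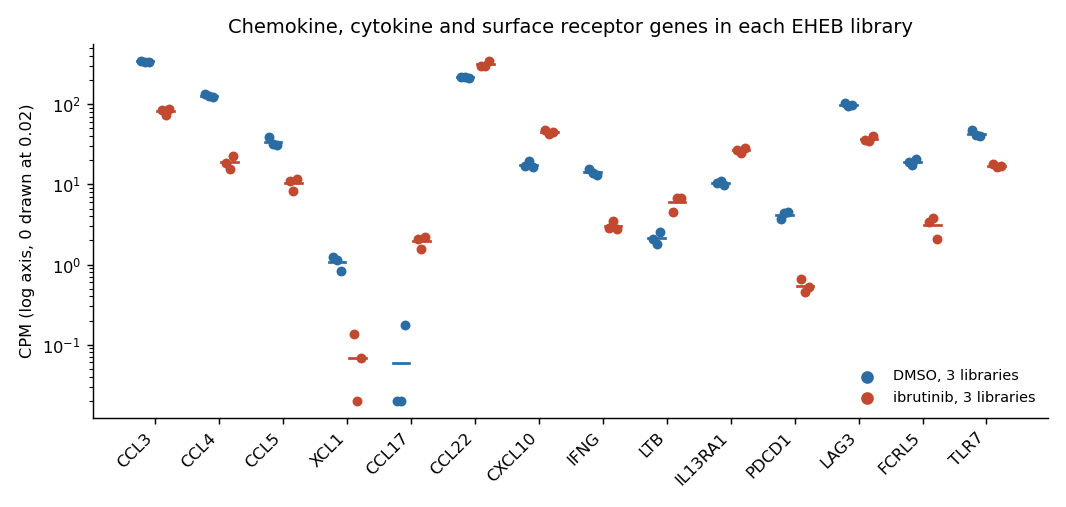
The y axis gives CPM on a log axis for 14 chemokine, cytokine and receptor genes, with the 3 DMSO libraries in blue, the 3 ibrutinib libraries in red, a bar at each group's mean and counts of 0 drawn at 0.02. CCL3, CCL4, CCL5, XCL1, IFNG, PDCD1, LAG3, FCRL5 and TLR7 are lower in all ibrutinib libraries, and CCL17, CCL22, CXCL10, LTB and IL13RA1 are higher in all of them.

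Of the homing and retention receptors that place B cells in lymphoid tissue 4 higher and 14 lower of 31 were called (median −0.33), and by sign alone 16 lay below 0 and 15 above. On leaving out a library, the count of rises, 4 with all libraries, was 0 without DMSO library 2 or ibrutinib library 1, 1 without DMSO library 1 or DMSO library 3 or ibrutinib library 2 and 2 without ibrutinib library 3. CCR7, which guides cells into lymph nodes, was at 649, 473 and 465 CPM with DMSO and 895, 612 and 985 with ibrutinib (log2 fold change 0.65 ± 0.195, adjusted p = 0.0381), and its call was lost without DMSO library 2 or 3 or ibrutinib library 1 or 3 (adjusted p = 0.111 to 0.127), without the low-count filter (adjusted p = 0.0527) and with only the 6 libraries fitted (adjusted p = 0.0653). The integrins ITGAX (−1.52), ITGB2 (−0.89), ITGB7 (−0.88), ITGA4 (−0.65) and ITGAL (−0.62) fell together. ITGB2, the shared beta chain of the leukocyte integrins, was at 313, 342 and 329.7 CPM with DMSO and 182, 157 and 194 with ibrutinib (log2 fold change −0.89 ± 0.0805, adjusted p = 3.66e-05). CXCR4 (0.11, adjusted p = 0.462) and CXCR5 (0.45, adjusted p = 0.596) were not called. The actin cytoskeleton gave 0 higher and 19 lower of 44 (3 and 15 without TMM), with ACTG1 (−0.83), CORO1A (−0.79), ACTN1 (−0.71) and CFL1 (−0.59) among the falls and ACTB not called (−0.041, adjusted p = 0.923), and tubulins gave 0 higher and 2 lower of 15.

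Markers of CLL and of B-cell fate were divided. The immunophenotype list gave 6 higher and 5 lower of 28, with CD24 (1.24), ZAP70 (1.22), FCER2 (0.72) and CD200 (0.58) higher and the activation marker CD69 lower (log2 fold change −1.01 ± 0.0962, adjusted p = 4.5e-05). Of B-cell transcription factors 5 higher and 6 lower of 27 (7 and 3 without TMM) were called. BCL6, a transcriptional repressor of germinal centre B cells, fell from 0.667, 0.628 and 0.956 to 0.269, 0.183 and 0.229 CPM (log2 fold change −1.70 ± 0.275, adjusted p = 0.00146). The plasma-cell programme gave 3 higher and 5 lower of 20, with SDC1 (−0.85) and JCHAIN (−0.55) lower and IRF4 slightly higher (0.25). Plasma-cell markers summed to 1055 to 1278 CPM with DMSO and 795 to 872 with ibrutinib, with 4 of 6 lower. Immunoglobulin genes gave 1 higher and 4 lower of 11 (1 and 2 without TMM), with IGHE at 1.16, 1.98 and 1.22 and 9.48, 7.89 and 9.60 CPM (log2 fold change 2.63 ± 0.431, adjusted p = 0.0016) and the light chain IGKC lower (−0.35). With single libraries left out, the count of falls among transcription factors, 6 with all libraries, was 3 without DMSO library 1 or ibrutinib library 1, and the count of falls in the immunophenotype list, 5 with all libraries, was 3 without DMSO library 3 or ibrutinib library 1 or ibrutinib library 2. For immunoglobulin genes the count of falls, 4 with all libraries, was 2 without DMSO library 2 or ibrutinib library 2.

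Interferon-stimulated genes fell more often than they rose, 6 higher and 27 lower of 55 (10 and 21 without TMM), with a median of −0.27. GBP2, a guanylate-binding protein, was at 57.2, 56.0 and 55.4 CPM with DMSO and 21.4, 19.7 and 20.5 with ibrutinib (log2 fold change −1.45 ± 0.0562, adjusted p = 3.59e-07). TRIM14 (−1.58), CMPK2 (−1.16), GBP1 (−0.81), OAS3 (−0.66) and ISG15 (−0.45) fell, while XAF1 (0.83), PARP14 (0.48), GBP4 (0.45) and IFIT3 (0.41) rose. Genes of MHC class I presentation, which interferon also controls, gave 1 higher and 10 lower of 21, with HLA-E (−0.67), TAP1 (−0.62), PSMB8 (−0.51) and PSMB9 (−0.46) lower, and the proteasome list as a whole gave 2 higher and 4 lower of 37 (7 and 2 without TMM). MHC class II gave 3 higher and 7 lower of 19 with CIITA, its master regulator, higher (log2 fold change 0.66 ± 0.0775, adjusted p = 0.000176). Of the Toll-like receptor pathway 6 higher and 4 lower of 25 were called. TLR7, the receptor for single-stranded RNA, was at 48.02, 41.1 and 39.9 and 17.8, 16.7 and 16.8 CPM (log2 fold change −1.33 ± 0.167, adjusted p = 0.000282), and CD180, a Toll-like receptor homologue of B cells, fell as well (−1.75). Here the count of rises in the Toll-like receptor pathway, 6 with all libraries, was 3 without DMSO library 1 or ibrutinib library 1, and the count of falls in the proteasome list, 4 with all libraries, was 2 without DMSO library 1 or DMSO library 3 or ibrutinib library 1 or ibrutinib library 3.

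Mitosis and histone genes were lower by small amounts. 29 of 60 mitosis genes fell and none rose (median −0.40), among them PTTG1 (−0.68), ASPM (−0.66) and KIF2C (−0.64). ASPM, a spindle pole protein, was at 71.6, 73.6 and 72.2 CPM with DMSO and 46.3, 46.4 and 45.3 with ibrutinib (log2 fold change −0.66 ± 0.0509, adjusted p = 1.22e-05). Replication and S-phase genes gave 2 higher and 8 lower of 54, and without TMM 6 higher and 1 lower, so that most were not called and the share lower was near that of all genes. Replication-dependent and variant histone genes gave 0 higher and 54 lower of 66 (median −0.56). HIST1H3H was at 112, 105 and 102 and 61.7, 56.4 and 64.6 CPM (log2 fold change −0.80 ± 0.0884, adjusted p = 0.000116). Most such messages carry no poly(A) tail and are retained by rRNA depletion. Histone genes, like ribosomal protein and HLA genes, have near-identical copies that can share reads, so single values are uncertain. CCND2, the D-type cyclin downstream of the receptor, was at 4264, 3963 and 3649 and 2484, 2363 and 2672 CPM (log2 fold change −0.66 ± 0.0716, adjusted p = 0.000106), and the cyclin and CDK inhibitor list gave 0 higher and 4 lower of 20. On leaving out a library, the count of falls in mitosis, 29 with all libraries, was 19 without DMSO library 2, and the count of falls in S phase, 8 with all libraries, was 1 without ibrutinib library 2, 2 without DMSO library 1, 3 without DMSO library 2 or DMSO library 3 and 4 without ibrutinib library 1.

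Genes of cell death and DNA damage were called to differing extents. Of the 9 tested BCL2 survival and BAX-type genes 0 were called by edgeR and 0 by limma-voom, while DESeq2 called 1 lower, edgeR without TMM called 2 higher, and 2 had an unadjusted p under 0.05 in edgeR. MCL1 was at 868, 866 and 686 CPM with DMSO and 724, 608 and 625 with ibrutinib (−0.31, adjusted p = 0.0602), and BCL2 had a log2 fold change of 0.0082, adjusted p = 0.919. Among BH3-only genes 1 higher and 2 lower of 9 were called, the rise being BMF (log2 fold change 0.39 ± 0.0528, adjusted p = 0.000427) and the falls the hypoxia genes BNIP3 and BNIP3L. The death receptor and caspase list gave 1 higher and 7 lower of 25 (5 and 3 without TMM), with TNFRSF1B at 431, 453 and 473 and 207, 192.4 and 228 CPM (log2 fold change −1.11 ± 0.0654, adjusted p = 2.74e-06). Targets of p53, which is wild type in EHEB, gave 4 higher and 7 lower of 36 (7 and 5 without TMM), with BTG2 (−0.68) and PLK2 (−0.66) lower, TP53INP1 higher (0.47) and MDM2 not called (0.029, adjusted p = 0.901). DNA damage signalling and repair gave 3 higher and 2 lower of 44 (8 and 1 without TMM). On leaving out a library, the count of falls in the death receptor list, 7 with all libraries, was 3 without DMSO library 2 or ibrutinib library 1 and 4 without DMSO library 1 or DMSO library 3, and the count of falls among p53 targets, 7 with all libraries, was 4 without DMSO library 2 or ibrutinib library 2. In the p53 list the count of rises, 4 with all libraries, was 2 without DMSO library 1 or DMSO library 2 or DMSO library 3 or ibrutinib library 1 or ibrutinib library 2.

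Antioxidant genes and chaperones were more often higher than lower. HMOX1, which degrades haem, was at 5.61, 5.05 and 6.13 CPM with DMSO and 22.3, 20.9 and 24.6 with ibrutinib (log2 fold change 2.01 ± 0.125, adjusted p = 4.23e-06), and NQO1, a quinone reductase, at 26.1, 21.0 and 16.4 and 54.5, 49.2 and 57.7 CPM (log2 fold change 1.35 ± 0.151, adjusted p = 0.000127). SLC7A11, the cystine importer, rose by 1.06 and the ferritin light chain FTL (0.64) rose as well. In all, 6 higher and 2 lower of 21 NRF2 genes were called. Cytosolic chaperones gave 8 higher and 1 lower of 28 (15 and 1 without TMM), with HSPA1B (0.76), FKBP4 (0.51) and HSPA8 (0.43). ATF4 stress genes gave 5 higher and 7 lower of 36 (5 and 4 without TMM) and included the rise of CHAC1, which degrades glutathione (log2 fold change 1.33 ± 0.147, adjusted p = 0.000117). Aminoacyl-tRNA synthetases gave 1 higher and 1 lower of 20 (3 and 1 without TMM), endoplasmic reticulum folding genes 6 higher and 7 lower of 42 (11 and 7 without TMM), autophagy genes 2 higher and 3 lower of 33 (7 and 0 without TMM), metallothioneins and zinc transporters 1 higher and 2 lower of 7 (3 and 2 without TMM), and lysosome genes 1 higher and 13 lower of 49 (4 and 10 without TMM) with GAA (−1.09) and RRAGD (−1.02) lower. On leaving out a library, the count of falls among autophagy genes, 3 with all libraries, was 0 without DMSO library 1 or DMSO library 2 or ibrutinib library 2 or ibrutinib library 3 and 1 without DMSO library 3 or ibrutinib library 1, and the count of rises in endoplasmic reticulum folding, 6 with all libraries, was 3 without DMSO library 2.

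Genes of the translation machinery were more often lower than higher. Cytosolic ribosomal protein genes gave 1 higher and 51 lower of 85 (median −0.28). Without TMM 40 were lower. Translation factors gave 4 higher and 13 lower of 43, and without TMM 6 and 5. With single libraries left out, the count of falls among translation factors, 13 with all libraries, was 6 without DMSO library 1 or DMSO library 2 or ibrutinib library 1 or ibrutinib library 2 and 8 without DMSO library 3. MYC and ribosome biogenesis genes gave 9 higher and 4 lower of 61 (20 and 2 without TMM), with CAD, which starts pyrimidine synthesis, among the rises (0.40). On leaving out a library, the count of falls among MYC and ribosome biogenesis genes, 4 with all libraries, was 1 without DMSO library 1 or DMSO library 2 or ibrutinib library 2 and 2 without ibrutinib library 1, and the count of rises among translation factors, 4 with all libraries, was 1 without ibrutinib library 1 and 2 without DMSO library 1 or DMSO library 2 or ibrutinib library 3.

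Genes of drug handling divided. UGT2B17, the UDP-glucuronosyltransferase on which the study centred, was at 65.8, 62.3 and 58.5 CPM with DMSO and 83.2, 80.4 and 78.8 with ibrutinib (log2 fold change 0.38 ± 0.0731, adjusted p = 0.00426). UGT, CYP and aryl hydrocarbon receptor genes gave 4 higher and 3 lower of 19, with TIPARP, a target of that receptor, lower (log2 fold change −0.68 ± 0.0552, adjusted p = 1.7e-05). Efflux ABC transporters gave 4 higher and 1 lower of 11, with ABCA3 (0.82) higher and ABCB4 (−0.64) lower. Among UGT, CYP and related genes the count of rises, 4 with all libraries, was 1 without ibrutinib library 1 and 2 without DMSO library 2.

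Noncoding genes moved in both directions, and the ZNF zinc finger genes, a separate list, are given beside them. MALAT1 was at 1185, 1288 and 1775 CPM with DMSO and 4052, 6475 and 2636 with ibrutinib (log2 fold change 1.63 ± 0.283, adjusted p = 0.00226), with ibrutinib library 2 highest and library 3 nearest to DMSO. MIR155HG, the host of miR-155, was at 289, 277 and 281.2 and 400.3, 390.0 and 378 CPM (log2 fold change 0.46 ± 0.0382, adjusted p = 1.89e-05). Noncoding genes of B-cell leukaemia gave 2 higher and 1 lower of 16. For snoRNA host genes these were 7 and 4 of 23 (7 and 2 without TMM), and for 7SL and related RNAs 0 and 1 of 5. ZNF zinc finger genes gave 43 higher and 14 lower of 435 (76 and 7 without TMM) with a median of 0.12. Those are 9.9% and 3.2% of the list, beside 8.5% and 11.2% of all genes, so the share higher was near that of all genes. On leaving out a library, the count of rises among snoRNA hosts, 7 with all libraries, was 3 without DMSO library 1 or ibrutinib library 2 and 4 without DMSO library 2 or ibrutinib library 1, and the count of rises among ZNF genes, 43 with all libraries, was 25 without ibrutinib library 2, 26 without ibrutinib library 1 and 27 without DMSO library 1 or DMSO library 2. Likewise the count of falls among ZNF genes, 14 with all libraries, was 9 without DMSO library 2, and the count of falls among snoRNA hosts, 4 with all libraries, was 2 without DMSO library 1 or ibrutinib library 1 or ibrutinib library 2. The median of the ZNF genes is close to the shift of 0.10 between the scalings.

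**Figure D4:**
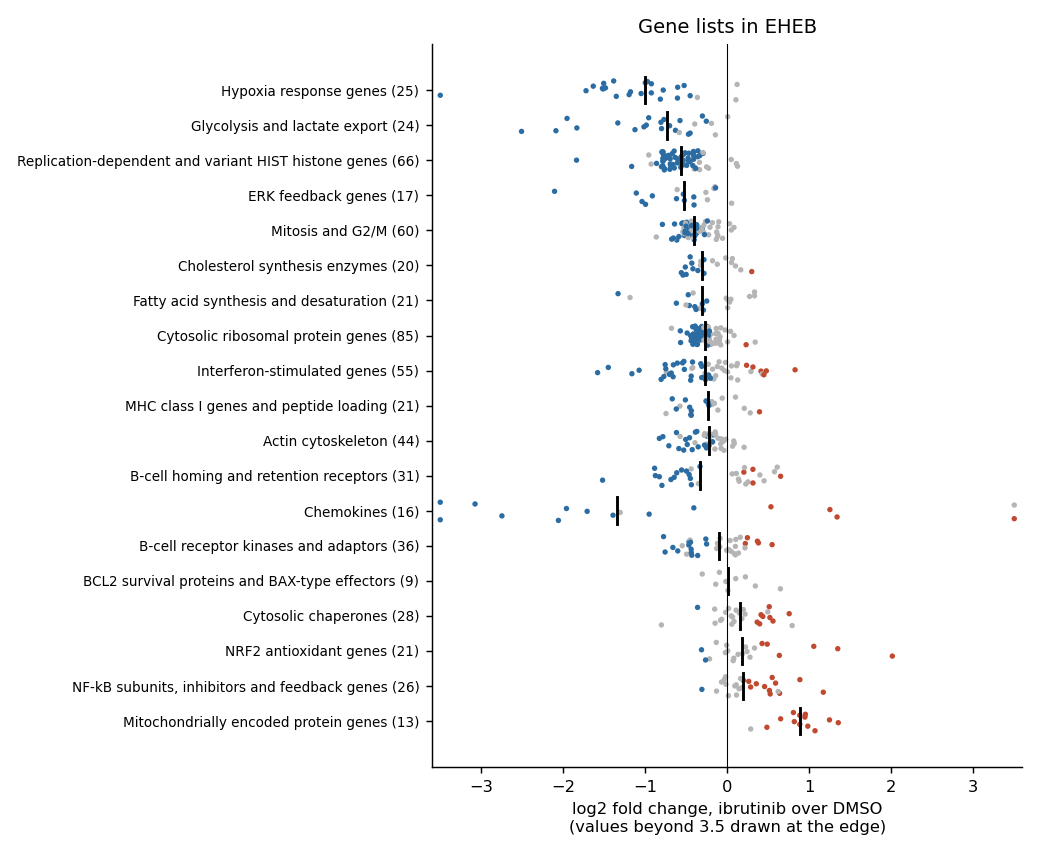
Each point is a tested member of the named list (number tested in parentheses) at its log2 fold change, ibrutinib over DMSO, in EHEB, with red for members called higher, blue for lower and grey for not called, and a black bar at the list's median. Hypoxia response genes lie furthest to the left among these lists except for chemokines, and mitochondrially encoded genes furthest to the right, and values beyond 3.5 are drawn at the edge.

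Outside the lists, the largest rises among protein-coding genes with at least 2 CPM included genes best known from other tissues. COL1A1, a collagen chain (chr17:50184101-50201632, minus strand), was at 0.741, 1.04 and 1.44 CPM with DMSO and 8.94, 8.19 and 6.74 with ibrutinib (log2 fold change 2.88 ± 0.216, adjusted p = 1.02e-05). KRT16, a keratin, was at 1.21, 0.991 and 1.13 and 8.04, 7.19 and 8.29 CPM (log2 fold change 2.82 ± 0.161, adjusted p = 2.16e-06). PRRX1, a mesenchymal transcription factor, was at 4.08, 8.65 and 8.62 and 42.3, 41.1 and 39.1 CPM (log2 fold change 2.52 ± 0.326, adjusted p = 0.000342). No library of either group reached the range of the other in these genes. TMEM72 (2.85), MYO18B (2.47), PDGFRA (2.41), CFP (2.33), NCCRP1 (2.24), ARNT2 (2.16), SLCO2B1 (2.05), ACKR1 (2.04) and NOS1 (2.03) complete the 12 leading rises. Fibroblast markers summed to 17.1 to 17.7 CPM with DMSO and 20.2 to 21.6 with ibrutinib, and 1 of 3 tested members, COL1A1, was called. The rise of this sum came from COL1A1 alone. PDGFRB was at 16.04, 16.43 and 15.6 CPM with DMSO and 12.51, 12.85 and 13.46 with ibrutinib. Neither PDGFRB (−0.31) nor COL3A1 (−2.35) was called, and COL1A2 and DCN were at 0 throughout. The leading falls not yet named were BTBD3 (−2.72), the cadherin CDH17 (−2.35) and the lysosomal channel TPCN2 (−2.34), whose call was lost without ibrutinib library 1 or 3 (adjusted p = 0.055 to 0.0576).

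JVM2 and MEC1 were treated with the same dose for 72 h and 48 h, so the line and the time of exposure cannot be told apart in what follows. In both lines the ibrutinib libraries are also numbered apart from DMSO, so the limit given for EHEB holds there too. Ibrutinib called 14.5% of genes higher and 15.0% lower in JVM2, and 23.7% higher and 23.9% lower in MEC1. The difference of the effect was tested as an interaction in 18 libraries. The effect was more positive in EHEB than in JVM2 for 4.54% of 18851 genes and more negative for 7.45%, and against MEC1 these shares were 14.2% and 12.2%.

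Interferon-stimulated genes differed between the lines. They gave 40 higher and 2 lower of 55 in JVM2 and 39 and 2 of 55 in MEC1, with medians of 0.58 and 0.86 against −0.27 in EHEB. The interaction was negative for 40 of 55 against JVM2 and 43 of 55 against MEC1. OAS3, an antiviral enzyme, had log2 fold changes of −0.66 in EHEB, 0.49 in JVM2 and −0.55 in MEC1 (EHEB minus JVM2 −1.16 ± 0.106, adjusted p = 6.52e-06). For TLR7 these were −1.33, 0.24 and 1.29 (EHEB minus MEC1 −2.61 ± 0.128, adjusted p = 4.18e-09).

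Hypoxia and glycolysis genes had lower fold changes in EHEB too, but they also fell in MEC1. In MEC1 hypoxia genes gave 5 higher and 12 lower of 24 (median −0.52) and glycolysis genes 2 and 12 of 24 (−0.33). In JVM2 these were 0 and 3 of 24 (−0.022) and 3 and 5 of 24 (0.068). Against JVM2 the interaction was negative for 15 of 25 hypoxia and 14 of 24 glycolysis genes and positive for none, and against MEC1 it was negative for 11 and 10 and positive for 3 and 1. BNIP3L had log2 fold changes of −1.72 in EHEB, 0.17 in JVM2 and 0.092 in MEC1 (EHEB minus JVM2 −1.90 ± 0.220, adjusted p = 4.89e-05). LDHA had values of −1.83, −0.085 and 0.56 (EHEB minus JVM2 −1.76 ± 0.144, adjusted p = 2.66e-06). Actin genes had a negative interaction against JVM2 in 23 of 44 cases and a positive one in 2, but against MEC1 12 were negative and 11 positive. Mitosis genes showed the opposite sign against JVM2, with a positive interaction in 23 of 60, their median being −0.73 in JVM2 and −0.40 in EHEB. Histone genes rose in MEC1 (40 of 66), and 51 of 66 had a negative interaction against it. For mitochondrially encoded genes no interaction against JVM2 and 1 against MEC1 was called.

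**Figure D5:**
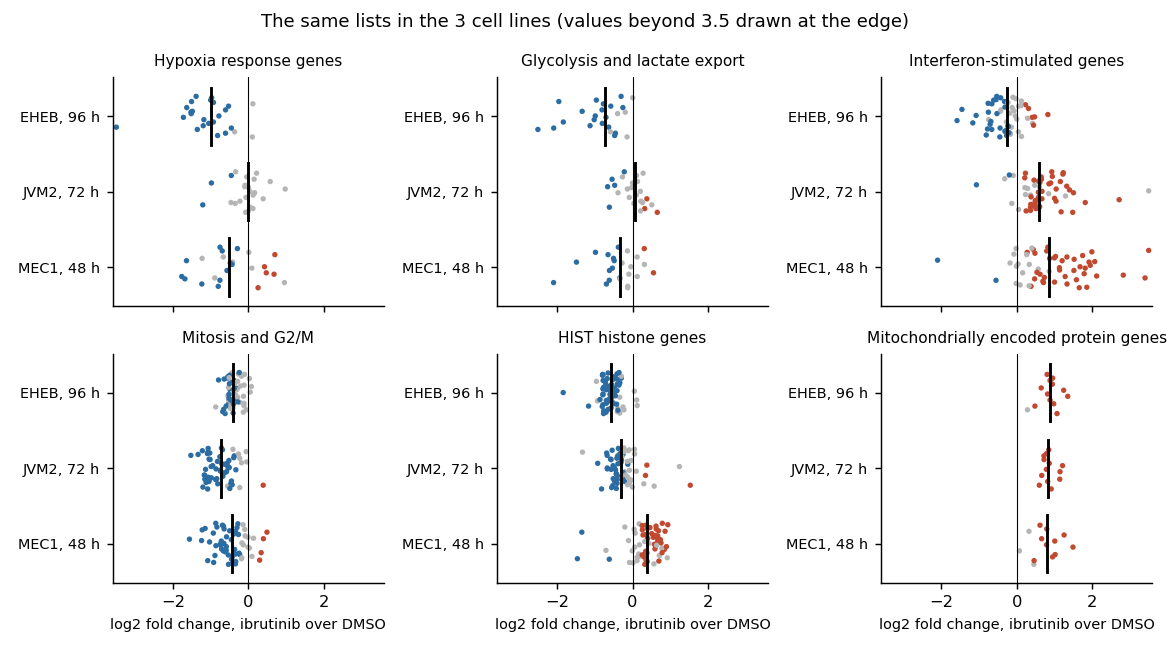
Members of 6 lists at their log2 fold change, ibrutinib over DMSO (x axis), in EHEB, JVM2 and MEC1 (y axis), with red for members called higher, blue for lower, grey for not called and a black bar at the median. The interferon panel has its median at −0.27 in EHEB, 0.58 in JVM2 and 0.86 in MEC1, while the mitochondrially encoded genes lie above 0 in all 3 lines.

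Idelalisib, an inhibitor of PI3 kinase delta, was compared with the same 3 DMSO libraries of EHEB, so its values stand here side by side only. The idelalisib libraries are also numbered close to the ibrutinib libraries and apart from DMSO. An effect shared by both drugs and a difference between these series of numbers cannot be told apart. Idelalisib called 15.1% of genes higher and 18.2% lower. Hypoxia genes gave 1 higher and 20 lower of 25 with a median of −0.997, and −0.9997 with ibrutinib. Mitosis genes had a median of −1.62 with idelalisib and −0.40 with ibrutinib, histone genes −1.57 and −0.56, and S-phase genes −0.94 and −0.12. Fold changes with idelalisib were −2.65 for LDHA, −3.30 for CCL4 and 0.34 for UGT2B17, beside −1.83, −2.75 and 0.38 with ibrutinib. The log2 fold change of TXNIP was 0.0033 with idelalisib and −0.99 with ibrutinib, and MIR155HG had −0.21 and 0.46.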

How the data were processed

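The 6 libraries of EHEB treated with DMSO or ibrutinib were taken from a table of 36 libraries and grouped by their titles. The deposited values are expected counts per gene, which the authors derived with StringTie 1.3.4 from HISAT2 2.1 alignments to hg38 after Trimmomatic, per the submitters' processing notes. They are whole numbers derived from coverage and so are not independent read counts. For the strand setting, read length and annotation release the sources used here give nothing. An entry with no gene name (0.00384% of counts) was left out.

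edgeR 4.0.16 (R 4.3.3) was run with TMM scaling and filterByExpr (minimum count 10, minimum total 15) on the 12 EHEB libraries, with the quasi-likelihood test and Benjamini-Hochberg adjustment. Line differences were interactions in 18 libraries. Alternatives were DESeq2 1.42.0, limma-voom 3.58.1, library size scaling, no filter or a mean CPM of 5, only the 6 libraries, and each library left out. The fits were tested on simulated data with known changes, in which every gene had the same dispersion. For the main contrast only 60, 73 and 67 of 17287 genes changed, by 0.5, 1 and 2 on the log2 scale. The shares recovered hold for that setting and are not the power in these data. In the main contrast edgeR recovered 5%, 67.1% and 100% of changes of 0.5, 1 and 2 on the log2 scale. In the differences from JVM2 and MEC1 it recovered 3.2% and 0% of changes of 0.5, and 14.3% and 20.6% of changes of 1. A gene or interaction that was not called is not shown to be unchanged. Total counts were 31419639 to 47140796 per library, and no replicate pair agreed within sampling noise.

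The members and the 59 gene lists were chosen with earlier results of these data known. Named genes were the 12 protein-coding genes with the largest rise and the 12 with the largest fall (mean CPM of at least 2, no overlap), the leading and most expressed members of each list, and BTK with related kinases and UGT2B17. Further list members were named as examples after their values were seen. Gene positions are from GENCODE 44 on GRCh38 and promoters from RefSeq on GRCh38.p14. Some genes are not reported here.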

Additional observations from a re-analysis of the deposited data

Results flagged for a closer look

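For the 12 leading rises and 12 leading falls the ibrutinib effect in EHEB was compared with that in the other lines, and genes whose interaction passed an adjusted p of 0.05 in edgeR's quasi-likelihood test are given with the difference in log2 fold change. Against JVM2, treated for 72 h, 4 of 12 rises and 8 of 12 falls differed. The difference was positive for PRRX1 (1.98), CFP (1.91), NCCRP1 (2.04) and SLCO2B1 (1.06), and negative for CA9 (−10.28), CCL4L2 (−2.53), PDCD1 (−1.72), CCL4 (−2.57), BTBD3 (−2.59), FCRL5 (−1.79), CD7 (−2.72) and PFKFB4 (−3.03). These genes were chosen for the size of their change in EHEB, so a larger effect there than in another line follows in part from the choice, and the differences are given as a description.

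Against MEC1, treated for 48 h, 4 of 12 rises and 8 of 12 falls differed, in both directions. The difference was positive for COL1A1 (1.62), SLCO2B1 (3.80), CD7 (5.05) and CDH17 (1.82), and negative for MYO18B (−6.25), ACKR1 (−2.25), CA9 (−9.85), CCL4L2 (−2.83), PDCD1 (−1.53), CCL4 (−2.06), FCRL5 (−0.94) and PFKFB4 (−1.88). SLCO2B1, an organic anion carrier, had log2 fold changes of 2.05 in EHEB and −1.74 in MEC1. The values of CA9 in EHEB with ibrutinib, MYO18B in MEC1 with DMSO and CD7 in MEC1 with ibrutinib rest on 3 libraries with no count, so their fitted sizes depend on the prior count and bound nothing. CCL4 and CCL4L2 share reads. The line and the time of exposure differ together, and their parts cannot be told apart.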

How the results depend on the processing

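Of the counts over all genes, only the number of higher genes moved by more than 1.5 times, from 1509 to 2522 with library size scaling in place of TMM, while lower genes went from 1990 to 1336. Over all 6 alternatives the counts were 1112 to 2522 higher and 1336 to 2393 lower. Leaving out a library gave 1038 to 1447 higher and 1385 to 1951 lower genes. Genes whose effect differed from JVM2 numbered 2259, and 1764 to 2159 with a library left out. For MEC1 these were 4980, and 4465 to 4683. No gene named here that was called, as reported or in an alternative run, had opposite signs in the 2 fits. Changes of sign in genes called in neither were not counted. No paired analysis was possible because the sample titles do not say which DMSO and ibrutinib libraries belong together. Of 37549 genes listed, 17748 had the depth to be tested, and nothing is said of the others.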
